A study of Homo sapiens with 24 samples.

Results

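Solute carriers are the membrane proteins that move amino acids, ions, metals, vitamins and metabolites across the plasma membrane and the membranes of organelles. The members described here were all mRNA probes of the array whose gene name begins with SLC and a family number, or with SLCO, apart from the SLC2A and SLC16A families and SLC7A11. The rule gave 249 probes for 212 gene names, out of 17535 mRNA probes for 15102 names, and 32 of the genes had more than 1 probe. By their names, 4 were counted apart as not carriers. They are the pseudogenes SLC7A5P1 and SLC9A7P1, the antisense gene SLC22A18AS and SLC4A1AP, which codes for an adaptor protein. Some names left in the carrier classes, such as SLC26A10 and SLC22A20, have probes that matched no RefSeq gene. Whether these code for a carrier was not checked.

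The cells were MRC5, a human lung fibroblast line, either untreated (control) or exposed to 0.2 mM H2O2 for 2 h (oxidative stress, OS). RNA came from whole cells (total RNA) or from 3 pools of a sucrose gradient. The untranslated pool held fractions 1 to 9, with free RNPs and single ribosomes, the low pool held fractions 10 to 14, and the high pool held fractions 15 to 23, with the most ribosomes. This made 8 groups of 3 one-colour arrays, 24 in all, and control and OS cells both received cycloheximide before harvest, which halts ribosomes on the mRNA.

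Carriers of the cell surface and of organelles reach their membranes through different routes. Most carriers of the plasma membrane and Golgi are made on ribosomes bound to the endoplasmic reticulum, whereas carriers of the mitochondrial inner membrane are made in the cytosol and imported. Amino acid carriers are known as targets of stress signalling, since the cell needs cysteine, glutamine and leucine to make glutathione and protein. SLC3A2 codes for the heavy chain that escorts light chains of the SLC7 family, such as the leucine carrier SLC7A5, to the cell surface.

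Values are log2 normalized signals, so a difference of 1 is a 2-fold difference, and levels of different probes are not compared. A member was tested in a comparison when 1 or more of the compared groups had all its arrays well above background for it, a mark set by the scanner software. It was called when the adjusted p of limma was under 0.05, with the adjustment over all tested mRNA and lncRNA probes.

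86 of the 249 member probes were well above background on all 24 arrays. The number on every array of a group was 138 in control and 148 in OS total RNA. It was 95 and 108 in the untranslated pool, 150 and 154 in the low pool, and 144 and 152 in the high pool, each for control and OS. The third OS array of the low pool stood apart. It had 236 member probes well above background, against 101 to 169 on the other 23 arrays, and 95.4% of all mRNA probes, against 43.4% to 67.7%. On the other 23 arrays, 62 member probes for 59 genes were never well above background, and these probes gave no measured level here. A gene among them may still have another probe that was well above background. All 8 probes of the 6 fibroblast marker genes on the array (COL1A1, COL3A1, COL5A1, COL6A3, THY1 and LUM) were well above background in every array of total RNA. The log2 of their summed signal was 18.4 to 18.5 in control and 18.1 to 18.2 in OS arrays. COL1A1, with means of 17.8 and 17.5, made up much of it. Of the 11 probes for epithelial, endothelial, blood and smooth muscle markers, 4 were well above background in every array of total RNA, namely 1 each for CLDN4, CDH5, PTPRC and DES. The log2 of the summed signal of the epithelial list was 8.87 to 9.43 in control and 10.06 to 10.72 in OS arrays. CLDN4 had means of 9.08 and 10.3, while EPCAM and KRT5 were not well above background on any control array. The part of this list in the results was not tested.

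The first comparison asked which carriers changed in whole cells upon OS. Of 150 tested members, 3 were higher and 2 lower, against 3.07% higher and 3.06% lower of all tested mRNA probes (6.12% in either direction). The shares of the members were 2% and 1.33%, and their median difference was -0.01, beside -0.02 for all mRNA probes. Control and OS arrays did not overlap for 72 members (48%), beside 48.3% of all mRNA probes. The carriers that rose were SLC25A34, SLC3A2 and SLC25A25, and those that fell were SLC20A1 and SLC36A1. In bulk RNA, fewer cells expressing a gene and less of its RNA per cell cannot be told apart.

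SLC25A34, an orphan member of the mitochondrial carrier family, showed the largest change among the called members. It read 6.66, 6.78 and 6.56 in control and 8.62, 8.84 and 8.65 in OS total RNA. The difference was 2.03 (SE 0.52, adjusted p = 0.0186), or 4.09-fold, and the groups were far apart. The call was lost when any of 5 of the 6 arrays of total RNA was left out. The third OS array of the low pool read 4.52, against 7.55 and 7.69 on its fellows. Without this low pool array the difference in total RNA was 2.09 with an adjusted p of 2.51e-07. SLC25A25, the mitochondrial ATP-Mg/phosphate carrier, read 11.30, 11.10 and 11.11 in control and 11.74, 11.86 and 11.49 in OS. Its difference of 0.53 (SE 0.16) had an adjusted p of 0.0499744, just under the threshold, and the call was lost when any of 5 of the 6 arrays compared was left out.

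SLC3A2 read 12.07, 12.03 and 12.13 in control and 13.06, 12.87 and 12.91 in OS total RNA. All OS arrays were above all control arrays, and the difference was 0.87 (SE 0.16, adjusted p = 0.00102), or 1.83-fold. This call was kept when each of the 6 arrays was left out in turn, which held for none of the other 4 calls in total RNA. SLC20A1, a sodium-phosphate cotransporter that also serves as a retrovirus receptor, read 14.93, 14.75 and 14.72 in control and 14.31, 14.39 and 14.31 in OS. Its difference was -0.47 (SE 0.13, adjusted p = 0.0364). SLC36A1, a proton-coupled amino acid carrier of the lysosome, read 11.40, 11.43 and 11.41 in control and 10.87, 11.04 and 11.01 in OS, a difference of -0.44 (SE 0.12, adjusted p = 0.032). The calls of SLC20A1 and SLC36A1 were lost whichever array of the comparison was left out. Fitted on total RNA alone, without the other groups, 11 members were called higher and 21 lower (7.33% and 14%), beside 8.83% and 16.1% of all mRNA probes. Under 75th percentile scaling, which lowered the median of all mRNA probes to -0.19, 1 member was higher and none lower, and 7 members then had an unadjusted p under 0.05. Of 10630 mRNA probes, 243 were then higher and 165 lower.

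**Figure D1:**
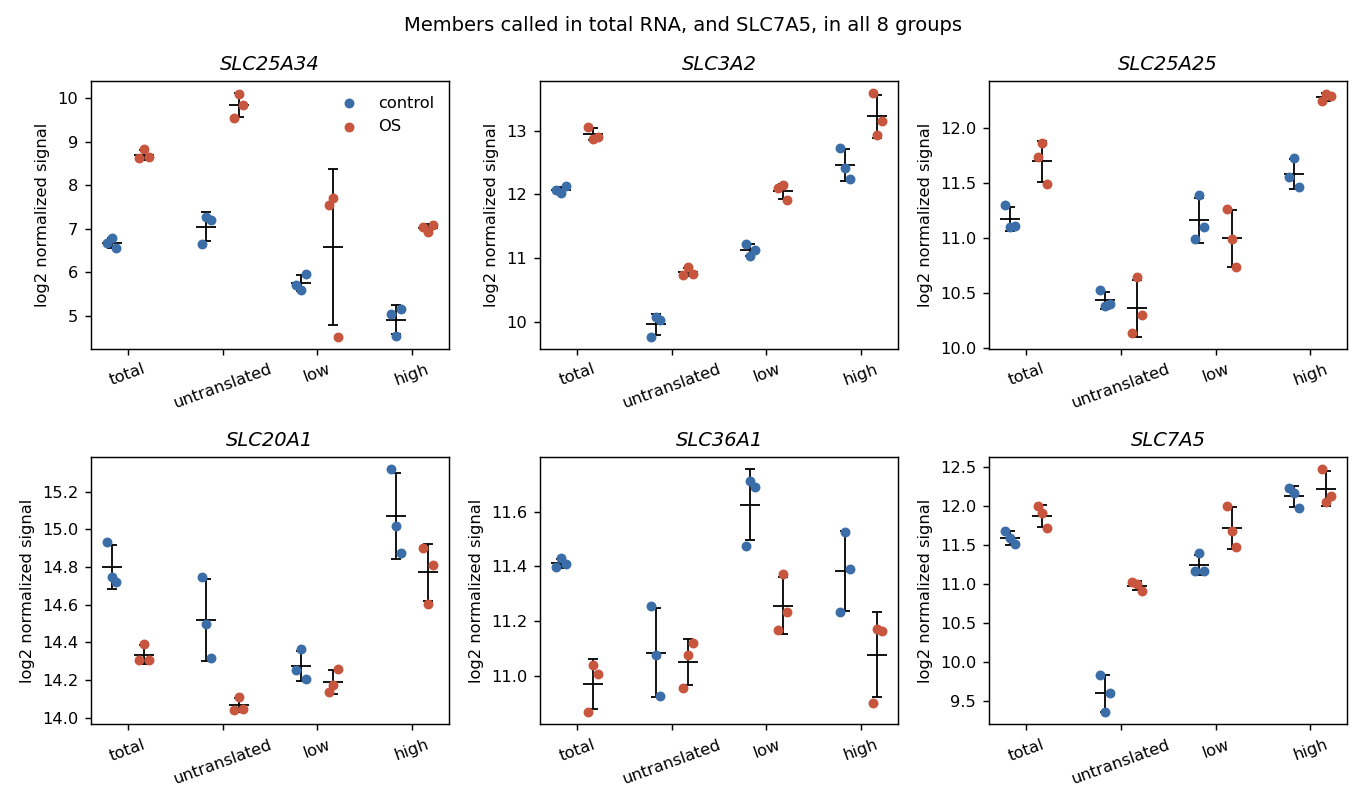
Log2 normalized signal (vertical axis, a separate scale in each panel) of the 5 members called in total RNA and of SLC7A5 in total RNA and the 3 pools, in control (blue) and OS (red). Points are arrays, and black bars are the mean and SD of 3 arrays. SLC3A2 is higher in OS in all 4 kinds of RNA, SLC7A5 is raised mainly in the untranslated pool, and the third OS array of the low pool lies apart for SLC25A34.

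The promoters of the carriers that rose in total RNA were searched on both strands for the letters TGANTCA, which AP-1 factors bind, and for TGCACNC and TGCGCNC, the core of the metal response element. The sequences, from 250 bases before to 50 after a transcript start, came from RefSeq (GRCh38.p14), where 231 promoters of 159 member genes were found. 223 of the 249 member probes matched a RefSeq gene by accession. SLC3A2 has 3 promoters in the table and SLC25A25 also has several, whereas the promoter of SLC25A34 held none of these letters. The matches, in capitals with 11 bases on either side, are shown for genes that rose. Promoters of SLC20A1 and SLC36A1, which fell, held none. Members not called in total RNA also held such letters, among them SLC36A4 and SLC38A1 (TGANTCA) and SLC7A5 (TGCGCNC).
SLC3A2, TGANTCA, chr11:62881651-62881679, plus strand: acgagggtgggTGACTCAgcgtcctcctt
SLC3A2, TGCGCNC on the other strand, chr11:62855948-62855976, plus strand: ggggctacggcGAGCGCAcgcgcatacgt
SLC3A2, TGCGCNC on the other strand, chr11:62856058-62856086, plus strand: gcgcgaaaaagGCGCGCAtgcgtcctacg
SLC25A25, TGCGCNC, chr9:128068118-128068146, plus strand: ctggccttcggTGCGCCCgggcgtggccg
The match in the first sequence begins 37 bases before a start of SLC3A2, and that promoter also held TGCACNC on the other strand 249 bases before the start. These letters are common. TGANTCA stood in 7.71% of the 35116 promoters and in 7.36% of the member promoters, and TGCACNC in 12.1% and 12.1%. TGCGCNC stood in 7012 of the 35116 (19.97%) and in 57 of the 231 (24.7%). The matches are descriptions of sequence, and binding was not measured.

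Amino acid carriers were followed through the gradient. In the untranslated pool, SLC3A2 read 9.76, 10.08 and 10.02 in control and 10.73, 10.85 and 10.76 in OS. In the high pool it read 12.73, 12.42 and 12.24 in control and 13.59, 12.93 and 13.16 in OS. Its differences were 0.83 (SE 0.15, adjusted p = 0.000512) in the untranslated, 0.93 (SE 0.16, adjusted p = 0.00117) in the low and 0.77 (SE 0.15, adjusted p = 0.00383) in the high pool. Under 75th percentile scaling the low pool difference turned to -0.29 and the calls in total RNA and in the low and high pools were lost, while without the third OS array of the low pool that scaling gave 0.65, 0.75 and 0.62, all called (adjusted p = 0.0056, 0.00925 and 0.0123). Fitted on the compared groups alone, the calls of SLC3A2 in the low and high pools were also lost. Its change in the high pool did not differ beyond error from that in the untranslated pool (difference -0.06, SE 0.22, adjusted p = 0.935).

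SLC7A5, its partner for the uptake of leucine and other large neutral amino acids, behaved differently between the pools. It read 11.69, 11.59 and 11.51 in control and 12.00, 11.91 and 11.72 in OS total RNA, a difference of 0.28 that was not called (adjusted p = 0.416). In the untranslated pool it read 9.84, 9.36 and 9.61 in control and 11.02, 10.998 and 10.91 in OS, a difference of 1.37 (SE 0.15, adjusted p = 3.82e-06) or 2.59-fold. In the high pool the groups overlapped, at 12.24, 12.16 and 11.97 against 12.48, 12.05 and 12.13, a difference of 0.10 (adjusted p = 1).

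Upon OS, the untranslated pool held the most calls. Of 110 tested members, 22 were higher (15.8% of all mRNA probes were) and 13 lower (15.7%), and 31.5% of all mRNA probes were called in either direction. The members' shares were 20% and 11.8%, and their median difference was 0.03, beside -0.04 for all mRNA probes. The groups did not overlap for 49 members (44.5%), beside 52.2% of all mRNA probes. The classes follow gene families, so that the SLC33, SLC35 and SLC37 families make up the nucleotide sugar and other ER or Golgi class, while Golgi carriers of other families stand with their substrates, SLC30A6 and SLC30A7 with metals and SLC9A7 with ions. SLC43A3 stands with the amino acid carriers of its family. Among amino acid carriers, 7 of 17 tested probes were higher and 1 lower, and among carriers of inorganic ions 7 of 19 were higher and 1 lower. Among nucleotide sugar and other ER or Golgi carriers, none of 19 was higher and 6 were lower, and among mitochondrial carriers 1 of 14 was higher and 3 lower. The class medians were 0.16, 0.23, -0.24 and -0.18, and differences between classes were not tested.

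The amino acid carriers raised in the untranslated pool beside SLC3A2 and SLC7A5 were SLC7A14 (1.50, 1 of 3 probes), SLC7A1 (0.89), SLC38A5 (0.80), SLC1A5 (0.77) and SLC38A1 (0.61, 1 of 3 probes). SLC7A14, a lysosomal member of the cationic amino acid family, read 6.61, 4.83 and 5.51 in control, not well above background on any of these arrays, and 7.09, 7.12 and 7.25 in OS, so it was at least 1.39-fold higher (adjusted p = 0.023), a call lost in 5 of 6 cases when 1 array was left out. SLC12A2, the sodium-potassium-chloride cotransporter NKCC1, read 7.42, 6.48 and 6.22 in control and 7.89, 8.10 and 8.38 in OS. Its difference was 1.42 (SE 0.23, adjusted p = 0.000239), with 1 of the 3 control arrays well above background. Other ion carriers that rose included SLC4A11 (0.92), SLC4A4 (0.89), SLC9A7 (0.72), SLC26A2 (0.60) and SLC9A5 (0.41, on 1 of its probes). The taurine carrier SLC6A6 rose by 1.08 and the glycine carrier SLC6A9 by 0.52 on 1 of its probes. SLC25A34 had the highest difference of the tested members in this pool, from 6.66, 7.26 and 7.21 to 9.55, 10.11 and 9.85 (2.79, SE 0.52, adjusted p = 0.000712).

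The tested member with the lowest difference in the untranslated pool was SLC31A1, the copper importer CTR1. It read 9.64, 9.67 and 9.39 in control and 8.55, 7.91 and 8.61 in OS, a difference of -1.21 (SE 0.20, adjusted p = 0.000225). SLC36A4, a lysosomal amino acid carrier, read 11.37, 11.10 and 11.28 in control and 10.36, 10.34 and 10.45 in OS (-0.87, SE 0.10, adjusted p = 1.17e-05). The 6 probes of the nucleotide sugar and other ER or Golgi class that fell were all of the SLC35 family. Most of the class is of that family, which includes carriers of nucleotide sugars. The 6 were SLC35F5 (-1.09), SLC35D1 (-1.07), SLC35E2 (-0.80), SLC35F2 (-0.59), SLC35B3 (-0.55) and SLC35A4 (-0.52). SLC35F2 and SLC35A4 each have another probe, which was not called lower. SLC35D1, a carrier of UDP-glucuronic acid, read 7.93, 7.91 and 7.68 in control and 6.68, 6.32 and 7.30 in OS, with 1 of the 3 OS arrays well above background (SE 0.29, adjusted p = 0.0121), and its call was lost without the second OS array of this pool. SLC35F5 read 8.27, 8.08 and 7.99 in control and 6.91, 6.38 and 7.78 in OS, also with 1 OS array well above background (SE 0.34, adjusted p = 0.0261), a call lost in 4 of 6 cases. Without the third OS array of the low pool, 28 members were higher and 18 lower, beside 1786 and 2047 of 8025 mRNA probes. Under 75th percentile scaling, 1 was higher and none lower with all arrays (10 at an unadjusted p under 0.05), and 23 were higher and 10 lower without that array. Of the 8025 mRNA probes, this scaling gave 131 higher and 34 lower with all arrays, and 1289 and 887 without that array.

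In the high pool, few members changed. Of 152 tested, 5 were higher (3.57% of all mRNA probes) and 1 lower (2.83%), with 6.41% of all mRNA probes called in either direction. The median difference of the members was -0.03, beside -0.01 for all mRNA probes. The groups did not overlap for 36 members (23.7%), beside 34.8% of all mRNA probes. SLC25A34 read 5.04, 4.52 and 5.15 in control, not well above background on any array, and 7.04, 6.93 and 7.08 in OS, so it was at least 3.32-fold higher (adjusted p = 0.0183), a call lost in 4 of 6 cases when 1 array was left out. SLC25A25 read 11.56, 11.73 and 11.46 in control and 12.24, 12.31 and 12.29 in OS (0.70, SE 0.16, adjusted p = 0.00898). The creatine carrier SLC6A8 was higher by 0.43 on 1 of its 3 probes (adjusted p = 0.0261), a call also lost in 4 of 6 cases, and the heme carrier SLC48A1 by 0.41 (adjusted p = 0.0348), and SLC3A2 was the fifth. The member that fell was SLC26A2, a sulfate carrier needed for cartilage matrix. It read 11.74, 11.71 and 11.51 in control and 11.25, 10.85 and 11.09 in OS (-0.59, SE 0.13, adjusted p = 0.00885), and the call was lost without the first control or the second OS array of the high pool. In total RNA SLC26A2 had a difference of -0.42 that was not called (adjusted p = 0.0656). Without the third OS array of the low pool, 8 members were higher and 4 lower, and under 75th percentile scaling 1 was higher and none lower (2 at an unadjusted p under 0.05). Of 10266 mRNA probes, 722 were higher and 646 lower without that array, and 88 and 9 under that scaling.

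In the low pool, 2 of 157 tested members were higher (4.42% of all mRNA probes) and 4 lower (5.45%), with 9.87% of all mRNA probes called. The groups did not overlap for 47 members (29.9%), beside 31.7% of all mRNA probes. This pool holds the array that stood apart. With it the median difference of the members was -0.30, beside -0.18 for all mRNA probes, and without it -0.06, beside -0.03. SLC3A2 and SLC26A10 were higher with and without this array (0.93 and 1.00 for SLC3A2, 1.01 and 0.99 for SLC26A10). SLC25A32, a mitochondrial folate carrier, and SLC36A4 were lower with and without it (-0.53 and -0.49, and -0.44 and -0.44). The calls of SLC26A10 and SLC36A4 were each lost without the second or the third control array of this pool. That of SLC26A10 was also lost with quantile normalization over all probes (0.57, adjusted p = 0.143), and its difference was 0.36 with normexp. SLC10A7 (on 1 of its probes) and the amino acid carrier SLC43A1 were called lower with the third OS array, at -1.68 (adjusted p = 0.0371) and -0.53 (adjusted p = 0.0274). Without the array these differences were -1.10 (adjusted p = 0.145) and -0.38 (adjusted p = 0.069), though both were called without it under 75th percentile scaling (-1.26 and -0.67, adjusted p = 0.00662 and 0.0446). Without the first or the second OS array instead, 10 or 9 members were higher and 33 or 36 lower. Of 11068 or 11310 mRNA probes, 845 or 973 were then higher and 2089 or 2397 lower. Under 75th percentile scaling, which lowered the median of all mRNA probes to -1.01, 1 member was higher and 27 lower with all arrays. Of 10806 mRNA probes, 151 were then higher and 2116 lower. Without the third OS array that median was -0.26, with 3 members higher and 5 lower, beside 303 and 728 of 10833 mRNA probes.

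The next comparison asked whether a carrier's mRNA changed differently upon OS in the untranslated and the high pool. The measure was the change upon OS in the high pool minus that in the untranslated pool. A positive value is called a shift toward the high pool, and a negative one a shift toward the untranslated pool. Both are relative to the other probes, since the arrays were normalized to a common distribution. Movement of mRNA between the pools was not measured. Of 152 tested members, 8 shifted toward the high pool (8.04% of all mRNA probes) and 13 toward the untranslated pool (8.03%), with 16.1% of all mRNA probes called. The 13 include SLC26A10, whose signal in the untranslated pool was below background throughout. The members' shares were 5.26% and 8.55%, and their median was -0.04, beside 0.02 for all mRNA probes. Control and OS values did not overlap for 58 members (38.2%), beside 39.7% of all mRNA probes. 12 of the 13 were also called higher in the untranslated pool, 7 of the 8 were called lower there, and 1 of the 13 was called lower in the high pool. The changes in both pools are parts of the shift, so these overlaps are in part built in and are not separate support. Of the 13, 4 were amino acid carriers, 5 were in the ion class by name (SLC26A10 among them) and none were mitochondrial or nucleotide sugar carriers. Of the 8, 3 were mitochondrial, 2 nucleotide sugar carriers, 2 metal carriers and 1 an amino acid carrier. The medians over all tested probes were -0.29 for the 24 of amino acid carriers and -0.30 for the 28 of ion carriers. They were 0.40 for the 19 of mitochondrial carriers and 0.42 for the 23 of nucleotide sugar and other ER or Golgi carriers, and differences between classes were not tested.

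The 13 with a shift toward the untranslated pool were led by SLC12A2. Its high minus untranslated difference was 1.16, 2.27 and 2.20 in control and 0.72, 0.05 and 0.32 in OS, setting side by side the arrays of the same number, and the shift was -1.52 (SE 0.34, adjusted p = 0.00729). The arginine carrier SLC7A1 went from 2.16, 2.74 and 2.53 to 1.35, 0.99 and 0.91 (-1.39, SE 0.35, adjusted p = 0.015). SLC7A5 went from 2.40, 2.80 and 2.36 to 1.45, 1.06 and 1.22 (-1.28, SE 0.22, adjusted p = 0.00122). SLC26A2 went from 1.74, 2.00 and 2.00 to 1.09, 0.33 and 0.73 (-1.19, SE 0.19, adjusted p = 0.000596). For these 4 the control and OS values did not overlap. The sodium bicarbonate cotransporter SLC4A4 shifted by -1.15, a call lost in 5 of 12 cases when 1 array was left out, and the Golgi sodium-proton exchanger SLC9A7 by -1.09. The pseudogene SLC9A7P1, whose sequence resembles that of SLC9A7 so that their signals may not be separate, shifted by -1.44. The glutamine carriers SLC38A5 and SLC38A1 (1 of 3 probes) shifted by -0.95 and -0.94, the magnesium carrier SLC41A3 by -0.86, the choline carrier SLC44A1 by -0.83 and SLC22A18 (now SLC67A1) by -0.77. SLC26A10 had a shift of -1.48, but it was not well above background on any array of the untranslated pool, in control or OS, so neither the size nor the direction of its shift was measured, and the call was lost with normexp (-0.35, adjusted p = 0.184).

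SLC31A1 had the largest shift toward the high pool among the called members. Its high minus untranslated difference was -0.75, -0.55 and -0.34 in control and 0.39, 1.34 and 0.61 in OS (1.33, SE 0.29, adjusted p = 0.00601). The sign of these differences depends on the scaling. With all arrays, the call was lost under 75th percentile scaling (1.15, adjusted p = 0.881) and with quantile normalization over all probes (1.33, adjusted p = 0.0569). Without the third OS array of the low pool, 75th percentile scaling gave 1.15 with an adjusted p of 0.021. Of the others, SLC35E2 shifted by 0.89, SLC48A1 by 0.81, SLC25A25 by 0.77, the mitochondrial carrier SLC25A14 by 0.74, SLC35A4 by 0.72, SLC25A32 by 0.57 and SLC36A4 by 0.55. Leaving out 1 of the 12 arrays lost the call of SLC25A25 in 8 cases, that of SLC36A4 in 9 and that of SLC35A4 in 1 (the third OS array of the high pool). The probe of SLC35E2 matches the accession now named SLC35E2B, a near copy, so their signals may not be separate. SLC35A4, whose mRNA is known for upstream reading frames that hold back its translation, read 12.26, 12.27 and 12.42 in control and 11.83, 11.97 and 11.59 in OS in the untranslated pool. In the high pool it read 9.99, 9.90 and 9.76 in control and 10.05, 9.98 and 10.20 in OS. Its level in total RNA overlapped between the groups, at 10.55, 10.61 and 10.56 in control and 10.57, 10.78 and 10.72 in OS (difference 0.12, adjusted p = 0.838).

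The calls for the shift depended on scaling more in one direction than in the other, and so did those of all mRNA probes. Under 75th percentile scaling, no member was called with all arrays, when 10 members had an unadjusted p under 0.05. Of 10369 mRNA probes, 8 and 6 were then called toward the high and the untranslated pool. Without the third OS array of the low pool, 1 member was then called toward the high and 16 toward the untranslated pool. Of 10369 mRNA probes, 277 and 932 were called in these directions, with a median of -0.08. Under the quantile normalization used throughout, leaving out that array gave 20 members toward the high and 24 toward the untranslated pool. Of the 10369 mRNA probes, 1732 and 1495 were then called.

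**Figure D2:**
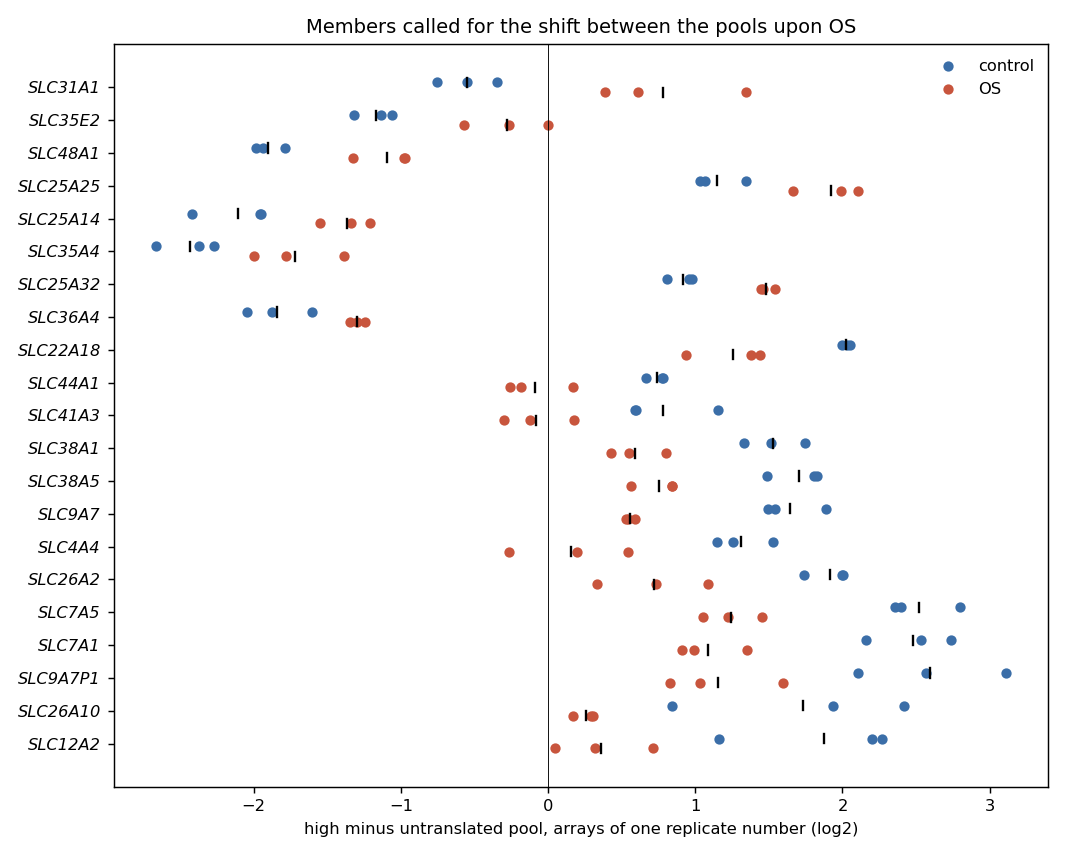
High minus untranslated log2 difference of the 21 member probes called for the shift, in control (blue) and OS (red). Each point sets the arrays of one replicate number side by side and black ticks are means of 3. The 8 rows at the top shifted toward the high pool and the 13 below toward the untranslated pool, among them SLC26A10, not well above background there. The red points of SLC31A1 lie at 0.39 to 1.34 and its blue points at -0.75 to -0.34.

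**Figure D3:**
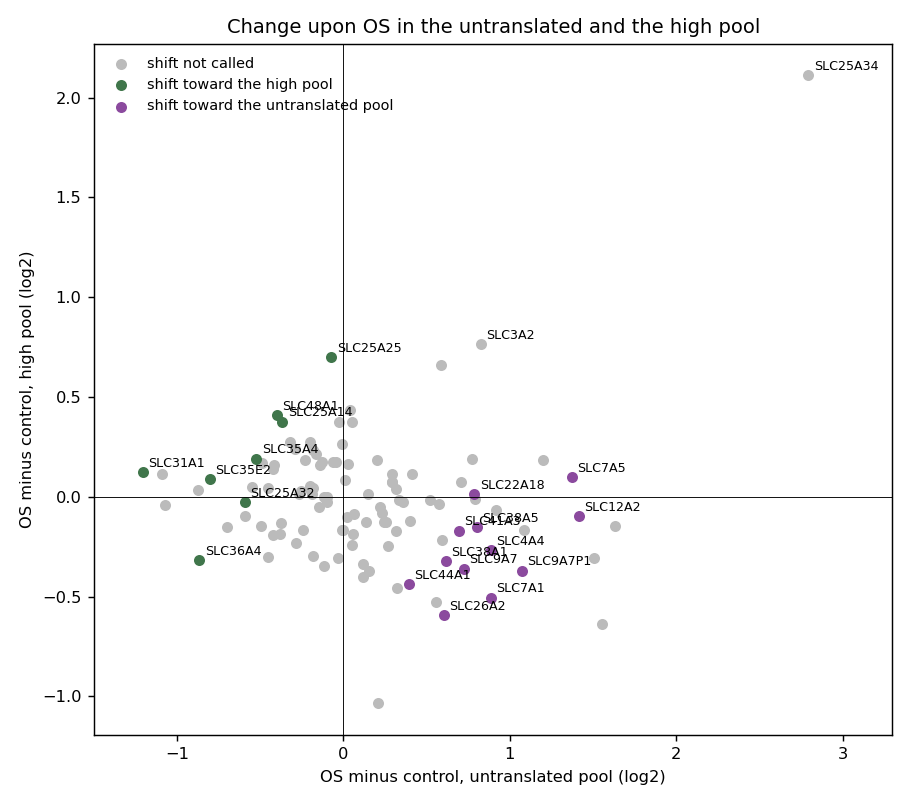
Change upon OS (log2, OS minus control) of the 110 member probes tested in both pools, in the untranslated pool (horizontal axis) and the high pool (vertical axis). Green and purple mark 20 of the 21 probes called for the shift, and SLC25A34 and SLC3A2 are named as 2 that rose in both pools. SLC12A2 and SLC7A5 lie at 1.42 and 1.37 on the horizontal axis and at -0.10 and 0.10 on the vertical axis.

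The last comparison described where carriers sit in control cells, as the high minus the untranslated pool. Of 145 tested members, 76 were higher in the high pool (42.2% of all mRNA probes) and 36 higher in the untranslated pool (31%), with 73.2% of all mRNA probes called. The members' shares were 52.4% and 24.8%, and their median difference was 0.82, beside 0.35 for all mRNA probes. Many passed the filter through the high pool alone. Of the 94 members well above background on every array of both pools, 46 were higher (48.9%, beside 38.8% of such mRNA probes) and 33 lower (35.1%, beside 39.6%), with medians of 0.41 and 0.00185. The pools did not overlap for 123 members (84.8%), beside 82.4% of all mRNA probes. The median of all mRNA probes depends on the scaling and was 1.64 under 75th percentile scaling, where 96 members were higher and 4 lower, and 1.05 after quantile normalization over all probes, with 90 higher and 18 lower. Of 9880 mRNA probes, 6023 were higher and 948 lower in the first setting, and 5501 and 2005 in the second. 29 member probes were well above background on every control array of the high pool and on none of the untranslated pool (11.6%, beside 7.71% of all mRNA probes), and 0 the other way round (0.189% of all mRNA probes). The lowest signal well above background was 6.42 to 7.12 on the control arrays of the untranslated and 5.17 to 5.40 on those of the high pool.

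Amino acid carriers lay toward the high pool, with 19 of 24 tested probes higher, 3 lower and a median of 1.57. The nucleotide sugar class of the SLC33, SLC35 and SLC37 families had 6 of 23 higher, 10 lower and a median of -0.53. Ion carriers had 15 of 26 higher and 7 lower (median 1.01), organic ion, bile acid and peptide carriers 9 of 15 and 3 (1.47), and mitochondrial carriers 7 of 17 and 4 (0.51). Metal carriers had 4 of 11 higher and 3 lower (0.17), neurotransmitter and vesicular carriers 5 of 9 and 2 (0.39), sugar and fatty acid carriers 4 of 9 and 3 (0.76), and those for nucleosides, vitamins and choline 5 of 8 and 1 (1.19). Among probes well above background on every array of both pools, the median was 1.36 for 15 of amino acid and -0.58 for 18 of nucleotide sugar carriers. That of ion carriers turned to -0.37 over 15 probes, that of metal carriers to -0.53 over 6 and that of sugar and fatty acid carriers to -0.78 over 5. The median of organic ion, bile acid and peptide carriers was 0.54 over 8 probes. That of nucleoside, vitamin and choline carriers was 0.74 over 5, of mitochondrial carriers 0.508 over 13 and of neurotransmitter and vesicular carriers 0.505 over 6. Differences between classes were not tested. The shift upon OS uses the same control arrays as this comparison, so both are not independent of each other.

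**Figure D4:**
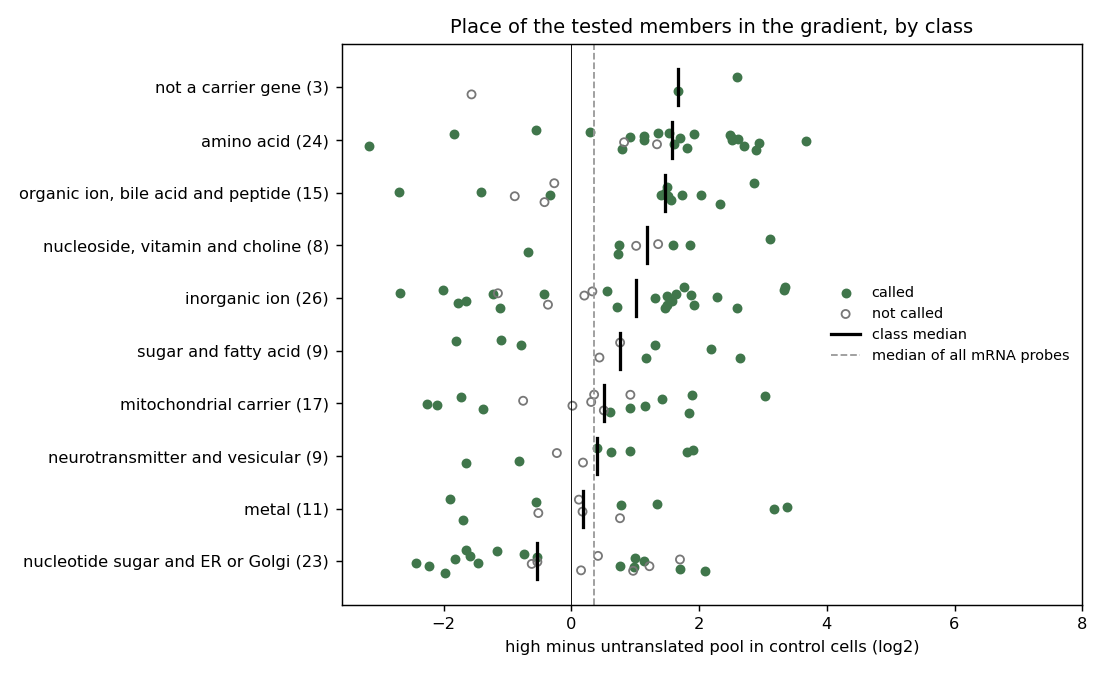
High minus untranslated log2 difference in control cells (horizontal axis) of the 145 tested member probes, by class with the number of probes. Filled points were called, open points were not, black bars are class medians and the dashed line is the median of all mRNA probes, 0.35. Amino acid carriers gather to the right of the line and 10 of the nucleotide sugar and other ER or Golgi carrier probes are filled points left of 0.

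The named members highest in the high pool were near or below background in the untranslated pool, so most of their folds are bounds. The leucine carrier SLC43A2 read 8.42, 8.604 and 8.53 in the high and 4.27, 4.23 and 6.01 in the untranslated pool, not well above background there, and was at least 3.59-fold higher (adjusted p = 0.000166). SLC30A7, a zinc carrier of the Golgi, read 10.51, 10.49 and 10.39 in the high and 8.05, 7.34 and 6.50 in the untranslated pool, 8.98-fold higher (3.17, SE 0.55, adjusted p = 6.02e-05). The mitochondrial dicarboxylate carrier SLC25A10 was at least 5.39-fold, the nucleobase carrier SLC43A3 at least 3.87-fold, the bicarbonate carriers SLC4A7 and SLC4A8 at least 3.80-fold and at least 2.35-fold, and the lysosomal carrier SLC46A3 at least 1.15-fold higher. For the Golgi zinc carrier SLC30A6 the difference of 3.38 gives no bound above 1. Of those higher in the untranslated pool, SLC35A4 had a difference of -2.44 (SE 0.12, adjusted p = 4.31e-12). SLC25A26, the mitochondrial carrier of S-adenosylmethionine, read 5.91, 6.01 and 5.53 in the high and 7.95, 8.44 and 7.87 in the untranslated pool (-2.27, SE 0.47, adjusted p = 0.000335). SLC37A2, a sugar phosphate carrier of the ER, had -2.23, SLC25A14 -2.11 and the anion exchanger SLC4A1 -2.01. SLC22A8, an organic anion carrier best known from kidney, read 7.50, 7.25 and 7.29 in the high and 9.81, 10.16 and 10.19 in the untranslated pool on 1 probe (-2.71, adjusted p = 1.21e-07), while its other probe was not well above background on any control array.

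Probes of the same gene could differ in their calls, when only some were called or their signs differed. In total RNA none of the 14 genes with several tested probes did so, for the shift 1 of 15 did, and for the place in control cells 6 of 14 did, some of them with differences within their errors. SLC38A1 and SLC8A1 had probes called in opposite directions. SLC38A1, the glutamine carrier SNAT1, had 3 probes. A probe at chr12:46577061-46577120 (GRCh37, minus strand) shifted by -0.94 (adjusted p = 0.00886), and one at chr12:46582007-46582066 had -0.23 (adjusted p = 0.547), both designed on the RefSeq transcript. In control cells both were higher in the high pool, by 1.53 and 1.36. The third, at chr12:46663538-46663597 and designed on an Ensembl transcript that RefSeq does not pair with the gene here, read 7.76, 6.87 and 7.50 in the high and 9.90, 11.36 and 10.36 in the untranslated pool (-3.17, SE 0.85, adjusted p = 0.00312). SLC8A1, the sodium-calcium exchanger NCX1, had a probe at chr2:40657330-40657389 with -2.69 (adjusted p = 5.61e-07) and another at chr2:40342393-40342452 with 1.49 (adjusted p = 0.046). Values of these genes are given per probe.

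14 of 21 carriers listed for their known roles in nutrient, metal, phosphate and pH control had a member probe, and the other 7 (SLC30A1, SLC39A14, SLC40A1, SLC25A3, SLC25A5, SLC25A37 and SLC29A1) were not measured by a probe of that name. Several of the 14 were not called for OS in total RNA or for the shift. The glutamine carrier SLC1A5 had 0.17 in total RNA (adjusted p = 0.848) and -0.58 for the shift (adjusted p = 0.24). SLC38A2, the amino acid carrier SNAT2, had 0.02 and -0.20 in total RNA on its probes (adjusted p = 0.997 and 0.608) and 0.30 and -0.46 for the shift (adjusted p = 0.55 and 0.175). The thiamine carrier SLC19A2 read 9.86, 9.66 and 9.52 in control and 10.47, 10.30 and 10.09 in OS total RNA, without overlap, but its difference of 0.61 (SE 0.26) was not called (adjusted p = 0.225). The neutral amino acid carrier SLC1A4 and SLC4A7 had 0.21 and -0.47 in total RNA (adjusted p = 0.976 and 0.934). For the shift they had -1.09 and -1.91 with wide errors (SE 0.76 and 1.11). SLC25A6, an ADP/ATP carrier of the inner mitochondrial membrane, had 1.51 in total RNA (SE 0.75, adjusted p = 0.316). There, 1 control array read 11.71 and the others 16.31 and 16.29. Its high minus untranslated difference was 0.48, 0.57 and 0.48 in control and -1.22, -0.23 and -0.74 in OS. These did not overlap, but the shift was not called.

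ABC transporters and P-type ATPases, which move their substrates with ATP, were counted for comparison. Of 75 probes for 57 genes, 47 were tested in total RNA, with 1 higher (3.07% of all mRNA probes) and 3 lower (3.06%). In the untranslated pool 10 of 33 were higher (15.8% of all mRNA probes) and 2 lower (15.7%). For the shift none of 45 was called toward the high pool (8.04%) and 6 toward the untranslated pool (8.03%). In control cells 27 of 44 were higher in the high pool (42.2% of all mRNA probes) and 7 lower (31%), with a median of 1.22. Differences between these and the solute carriers were not tested.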

How the data were processed

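RNA from MRC5 cells was measured on 24 one-colour arrays, 8 groups of 3. Feature Extraction 10.7.3.1 output was deposited by the authors for each array, and its processed signal is an intensity per spot with background subtracted. A second file deposited by the authors holds log2 values, quantile normalized over all probes, which served as an alternative. The array design used GRCh37. Their methods describe removing anomalous replicates without naming them, so all arrays were kept. The first and second control arrays of the untranslated pool share a label number and differed as much as other pairs of that group, and averaging them was an alternative.

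Here the processed signal was log2 transformed and quantile normalized for 17448 mRNA and 43911 lncRNA probes separately, after leaving out 178 probes marked as outliers, none of them a member. No member was saturated. A linear model with 8 groups was fitted to 24 arrays in limma 3.58.1 (R 4.3.3), with Benjamini-Hochberg adjustment over tested mRNA and lncRNA probes and calls at 0.05. Tests on simulated data were run first. A bound (at least N-fold) sets the bright group's mean against the dim group's, where each dim array counts as the higher of its lowest signal well above background and the probe's own. Arrays give no counts, so their number limits the precision. The series' design text describes separate RNA preparations, but p-values cover the spread between arrays, which may in part be technical.

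The members, classes and lists were chosen with earlier results of these data known. Named members were, per comparison, the called members whose groups did not overlap, up to 8 in each direction in total RNA, for the shift and for the place in control cells and up to 4 in each pool, besides 21 listed genes and genes with disagreeing probes. Other members are named to complete a class or a count. Alternatives were normexp background correction (offset 50), 75th percentile scaling, other normalization, filters on dim probes, slide or replicate number as a block, fits of the groups compared only, no moderation of variances, genes as means of probes, and leaving out arrays. Probe coordinates are those of the array files. Protein sequences were not used here. Values of some members are not reported here, though the counts include them.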

Additional observations from a re-analysis of the deposited data

Results flagged for a closer look

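For 21 member probes the change upon OS differed between the high and the untranslated pool, tested as an interaction in limma and counted in the report. The differences, high minus untranslated, were -1.52 for SLC12A2, -1.48 for SLC26A10, -1.44 for SLC9A7P1, -1.39 for SLC7A1, -1.28 for SLC7A5, -1.19 for SLC26A2 and -1.15 for SLC4A4. They were -1.09 for SLC9A7, -0.95 for SLC38A5, -0.94 for SLC38A1, -0.86 for SLC41A3, -0.83 for SLC44A1 and -0.77 for SLC22A18. SLC26A10 was not well above background on any array of the untranslated pool, so its direction was not measured. In the other direction they were 1.33 for SLC31A1, 0.89 for SLC35E2, 0.81 for SLC48A1, 0.77 for SLC25A25, 0.74 for SLC25A14, 0.72 for SLC35A4, 0.57 for SLC25A32 and 0.55 for SLC36A4. Single arrays were not tested as outliers, since groups of 3 are too small.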

How the results depend on the processing

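Counts of called members are given as higher and lower, and those not listed were within 1.5 times of the values in the report. Counts over all tested mRNA probes follow each setting in the same order. Unless given, the tested mRNA probes were 10630 in total RNA, 8025 in the untranslated, 10806 in the low and 10266 in the high pool. They were 10369 for the shift and 9880 in control cells. 75th percentile scaling gave 1 and 0 in total RNA, 1 and 0 in the untranslated, 1 and 27 in the low and 1 and 0 in the high pool, 0 and 0 for the shift, and 4 lower for the place in control cells. Of mRNA probes, these were 243 and 165, 131 and 34, 151 and 2116, 88 and 9, 8 and 6, and 948 lower. Under this scaling SLC3A2 in the low pool changed sign, to -0.29. With this scaling and without the third OS array of the low pool, 7 were lower in total RNA, 3 and 0 were called in the high pool, 1 was higher for the shift and 8 lower in control cells. Of mRNA probes, these were 1110 lower, 355 and 400, 277 higher and 1493 lower. Without that array alone, 6 were lower in total RNA, 4 higher in the low pool, 8 and 4 called in the high pool and 20 and 24 for the shift. Of mRNA probes, these were 820 lower, 635 higher of 10833, 722 and 646, and 1732 and 1495. Quantile normalization over all probes gave 1 and 9 in the low pool, 3 higher in the high pool, 5 higher for the shift and 18 lower in control cells. Of mRNA probes, these were 341 and 759, 273 higher, 622 higher and 2005 lower. Fits of the compared groups only gave 11 and 21 in total RNA, 0 and 0 in the low pool and 3 lower in the high pool. Of mRNA probes, these were 939 and 1707, 19 and 2, and 424 lower. Without moderation, 5 were lower in total RNA, 4 and 12 called in the low pool and 4 lower in the high pool. Of mRNA probes, these were 438 lower, 588 and 760, and 429 lower. Normexp gave 11 lower in the low and 2 in the high pool, beside 884 and 325 mRNA probes. With no filter on dim probes, 6 were lower in the untranslated and 1 in the low pool, 2 higher in the high pool and 4 higher for the shift. Of 17448 mRNA probes, these were 739 lower, 324 lower, 233 higher and 355 higher. Requiring every group above background left 46 higher in control cells, beside 2812 of 7241 mRNA probes. Leaving out each array in turn gave 1 to 2 and 0 to 0 in total RNA, 15 to 21 and 8 to 11 in the untranslated, 1 to 10 and 1 to 36 in the low and 2 to 4 and 0 to 3 in the high pool, 5 to 9 and 11 to 15 for the shift, and 70 to 74 and 31 to 34 in control cells. Of mRNA probes, the first 3 were 235 to 265 and 168 to 230, 983 to 1157 and 867 to 1145, and 279 to 973 and 260 to 2397. The last 3 were 222 to 354 and 152 to 247, 486 to 902 and 610 to 821, and 3903 to 4052 and 2874 to 3064. Deviations of arrays with the same replicate number correlated at -0.15 to 0.20, which did not show pairing by number, and the sources do not say that a number marks one preparation. With the replicate block 2 were lower in the high pool, 3 and 2 called in total RNA and 9 and 16 for the shift. Of mRNA probes, these were 291 lower, 347 and 324, and 822 and 829. Apart from the settings' own construction, the cause of these differences was not tested. Signal over background limits the dim members, above all in the untranslated pool.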

Other observations

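Single arrays could depart from their fellows for isolated members. A departure was counted where a member probe lay over 3 log2 units from the mean of the other two arrays of its group, which lay within 0.5 of each other. The third OS array of the low pool had 30 such probes, 18 of them lower. The first control array of total RNA had 6, all lower, and no other array had more than 3. These 6 were SLC35C1 (4.52 against 11.60 and 11.66), 1 of the probes of SLC44A2 (5.13 against 11.61 and 11.57), SLC7A5P1 (3.79 against 9.53 and 9.59), SLC25A6, SLC22A23 (3.44 against 7.82 and 7.88) and 1 of the probes of SLC11A1 (3.50 against 6.78 and 6.80). In OS total RNA these probes read close to the higher control arrays, for example 11.31, 11.58 and 11.48 for SLC35C1, so their mean differences rest on 1 array.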
